A study of Mus musculus with 6 samples.

Results

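The EGF receptor family and its ligands were examined in YUMM3.3 tumors as 10 genes chosen by name, 4 receptors (Egfr, Erbb2, Erbb3 and Erbb4) and 6 ligands (Areg, Ereg, Hbegf, Btc, Tgfa and Egf), of 40166 genes in the count table. Of the 10, 9 passed the filter on low counts (a group median of 5 or more) and were tested, among 15355 genes. YUMM3.3 is a mouse melanoma cell line with a mutant, constitutively active BRAF. It was injected subcutaneously into C57BL/6 mice, and RNA labelled as that of tumors was sequenced after 17 days of treatment. The 3 vehicle tumors (numbered 7, 8 and 9) came from mice given H2O, and the 3 RGS tumors (10, 11 and 12) from mice given Rigosertib (RGS), a small molecule directed at RAS pathway signaling, at 300 mg/kg by oral gavage 5 days a week. All 6 tumors share the line and the host strain, so they represent 1 cell line, and the sex of the mice that carried them was not given in the sources used here.

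EGF family ligands are made as membrane-anchored precursors. Metalloproteases release them, and the free ligand binds a receptor tyrosine kinase of the ERBB family, which then pairs with another receptor and activates RAS and PI3K. EGFR binds all 6 ligands studied here, ERBB4 binds Hbegf, Btc and Ereg products as well as neuregulins, ERBB3 binds neuregulins but has little kinase activity of its own, and ERBB2 has no known ligand and acts as a partner. In melanoma, EGFR and ERBB3 are known for signaling that can accompany inhibition of BRAF or MEK. In skin and other epithelia, amphiregulin, epiregulin and heparin-binding EGF are made during growth and repair.

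Library totals lay between 22793087 and 32555494 counts in the vehicle tumors and between 13837932 and 21617368 in the RGS tumors, without overlap. A floor of 3 counts was worth between 0.0856 and 0.226 CPM (counts scaled to a common library size with edgeR's TMM factors). The mitochondrial share of counts was 2.13% to 3.20% with vehicle and 5.60% to 8.22% with RGS. Depth and mitochondrial share thus moved with treatment. The number of members called higher, given below, was 4 as deposited, 4 with every library thinned to the smallest total and 4 without the mitochondrial genes. Thinning equalizes depth only, and leaving out mitochondrial genes keeps the same tumors. Whatever else goes with the mitochondrial share cannot be told apart from treatment. Of the melanocyte markers, Tyr, Dct and Mlana had 0 counts in all 6 tumors and Sox10 had counts in 1 RGS tumor only, whereas Mitf was present at 5.46 ± 1.74 CPM (SD, n = 3) with vehicle and 7.43 ± 2.97 with RGS. Pmel had at most 25 counts, so the defining pigment-cell markers of the labelled melanoma tissue were at or near 0 in these libraries. Most immune markers were scarce as well, with Adgre1 of macrophages and Cd3e of T cells at 0 in all 6 tumors. Cd68, another macrophage marker, had 917 to 2265 counts. The fibroblast markers were mixed. Col1a2 had 1855 to 11148 counts and Pdgfra 1494 to 7497, whereas Lum had 0 in all 6 tumors and Thy1 at most 15. These values go against what the label of a melanoma tumor in a host with immune cells would hold. The libraries are called tumors here after their labels alone, and whether their RNA came from whole tumors was not tested.

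Areg, the amphiregulin gene, was the member that moved most, 13.6-fold higher with RGS. The related ligand genes Ereg and Hbegf rose 1.51-fold and 1.33-fold, and among the receptors Egfr rose 2.16-fold. No member fell past the test. In all, 4 of the 9 tested members were higher (edgeR quasi-likelihood test, Benjamini-Hochberg adjusted p under 0.05) and 5 were not called. Over all 15355 tested genes 32.8% were called, 16.3% as higher and 16.5% as lower in RGS tumors. The same 4 members had all RGS values above all vehicle values, which was so for 21.7% of tested genes, and the opposite order, found in 0 members, held for 24.0%. The median log2 fold change was 0.41 over the 9 members and -0.05 over all tested genes. Without RGS tumor 12 the number of members called higher was 2. Since RNA of whole tumors was sequenced according to the labels, more RNA of a gene per cell and a larger share of cells that express it cannot be told apart.

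**Figure D1:**
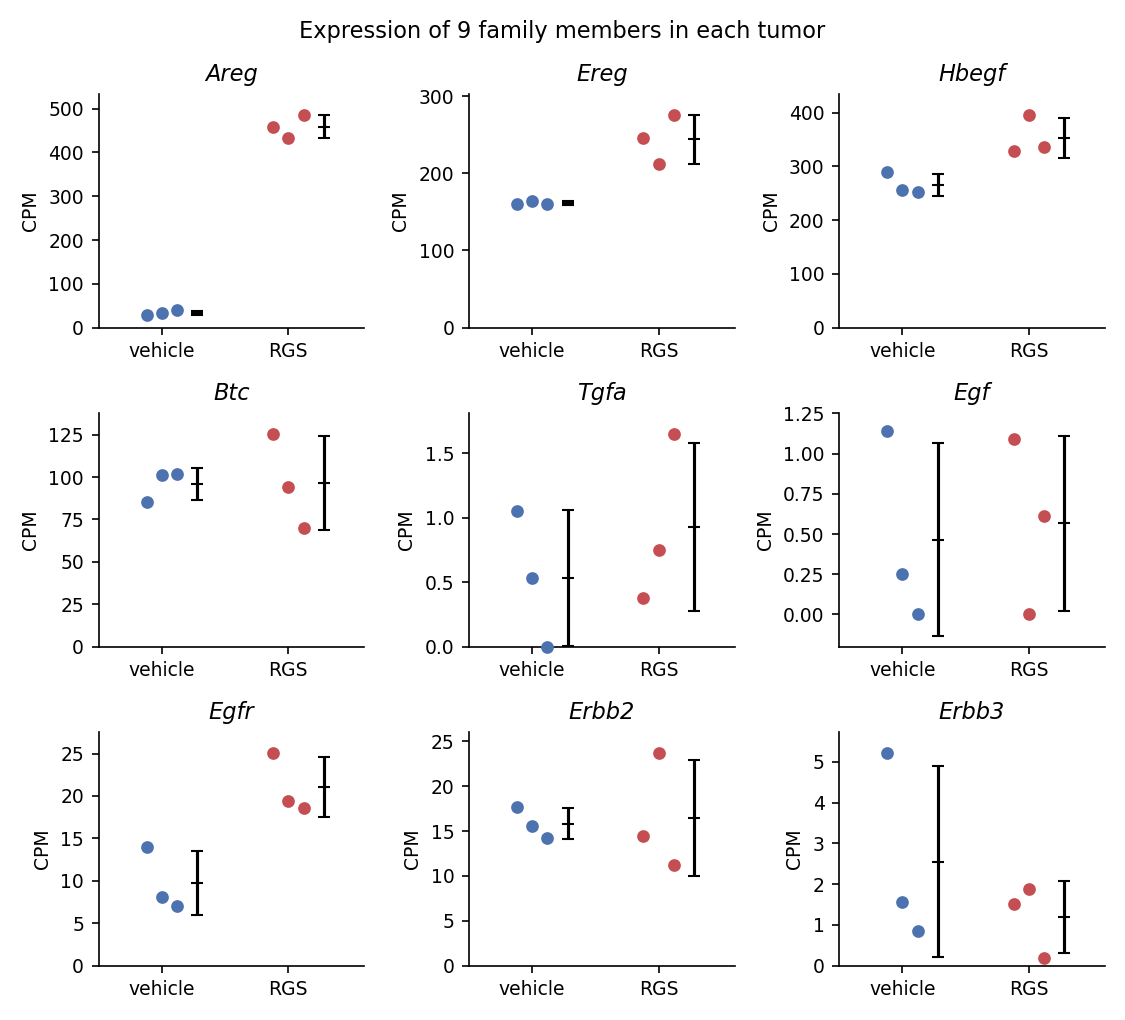
CPM (vertical axes, each with its own scale) of the 9 members with counts, 1 point per tumor, vehicle in blue and RGS in red, with the mean and SD of 3 tumors in black beside the points. Areg, Ereg, Hbegf and Egfr have all 3 RGS points above all 3 vehicle points; in the other 5 panels the groups overlap.

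Areg (ENSMUSG00000029378.5) lies at chr5:91139599-91148432 on the plus strand of GRCm38, in a stretch of chromosome 5 that also holds Ereg, Epgn and Btc. The 250 bases before 3 start sites are shown because they belong to the ligand gene that rose most, to a ligand gene of the same stretch that was not called, and to the receptor gene that rose. In the Areg sequence the capitals mark a cyclic AMP response element, TGACGTCA, with its first base 61 bases before the start, and a TATA box, TATAAA, with its first base 31 bases before it.
Areg promoter, chr5:91139349-91139598, plus strand: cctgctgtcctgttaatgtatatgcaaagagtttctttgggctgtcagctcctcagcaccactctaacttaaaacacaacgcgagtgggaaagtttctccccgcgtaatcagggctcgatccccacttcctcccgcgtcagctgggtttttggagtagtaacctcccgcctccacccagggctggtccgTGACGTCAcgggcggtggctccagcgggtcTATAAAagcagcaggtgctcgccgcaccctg
Btc promoter, chr5:91402995-91403244, minus strand: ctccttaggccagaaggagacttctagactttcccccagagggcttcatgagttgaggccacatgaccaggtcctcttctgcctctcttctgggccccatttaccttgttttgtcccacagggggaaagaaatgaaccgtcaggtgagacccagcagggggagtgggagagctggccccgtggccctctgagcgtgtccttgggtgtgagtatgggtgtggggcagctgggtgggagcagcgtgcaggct
Egfr promoter, chr11:16751953-16752202, plus strand: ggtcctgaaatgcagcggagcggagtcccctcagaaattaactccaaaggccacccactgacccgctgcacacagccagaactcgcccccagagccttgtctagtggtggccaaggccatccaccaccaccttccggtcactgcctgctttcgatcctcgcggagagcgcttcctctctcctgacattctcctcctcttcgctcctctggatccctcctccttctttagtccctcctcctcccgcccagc
The sequences are those of RefSeq on GRCm38.p6, written 5′ to 3′ on the strand of the gene, and the Btc and Egfr sequences carry none of the 5 motifs searched.

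RefSeq promoters were matched for 7 of the 10 members (8 promoters, of which 2 belong to Egf), and Ereg, Erbb3 and Hbegf had no matched entry. Both strands of each window, 250 bases before to 50 after the start, were searched for TGANTCA (the AP-1 motif), the 2 motifs above, GGAATG (the TEAD motif) and CACGTG (the E-box). The response element of Areg occurred in 1.79% of 32851 promoters of this length, and TATAAA in 13.6%. GGAATG occurred in 14.7%, and among the members only in the Erbb2 promoter, 88 bases before the start. TGANTCA and CACGTG, present in 7.81% and 7.15% of promoters, occurred in no matched member. A match of letters is a description of the window and not an occupied site.

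Areg encodes amphiregulin, a heparin-binding EGFR ligand. It stood at 29.2, 32.4 and 39.6 CPM in vehicle tumors 7, 8 and 9, and at 458.1, 433 and 486 CPM in RGS tumors 10, 11 and 12. The lowest RGS tumor was 10.9 times the highest vehicle tumor, and the RGS tumors spread by 26.5 CPM (SD) around a mean of 459. The log2 fold change was 3.77 ± 0.17 (SE), with a 95% interval from 3.40 to 4.13 and an edgeR adjusted p of 1.74e-11. Its change stood at percentile 97.8 of the tested genes. The raw counts, 1023, 909 and 922 with vehicle against 9676, 5748 and 7943 with RGS, rose although the RGS libraries were the smaller ones. No other annotated gene overlapped Areg on either strand.

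Ereg (ENSMUSG00000029377.5), chr5:91074622-91093646 on the plus strand, encodes epiregulin, which binds EGFR and ERBB4. It stood at 160.8, 164 and 160 CPM with vehicle and at 246, 212 and 275 CPM with RGS. The vehicle tumors were nearly level (SD 2.36 CPM) and the RGS tumors lay above all of them, at a mean of 244 ± 31.6. The log2 fold change was 0.59 ± 0.15 (SE; edgeR adjusted p = 0.00556). Without RGS tumor 12, the highest of the 6, it was 0.48 with an edgeR adjusted p of 0.0512. The antisense gene Gm19610 shares 141 exonic bases with Ereg on the opposite strand and had 141 to 369 counts per tumor, few beside the 2812 to 5633 of Ereg. The strand setting of the counting is not given in the sources used here.

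Hbegf (ENSMUSG00000024486.5), on chromosome 18, encodes heparin-binding EGF, a ligand of EGFR and ERBB4. Its level was 289, 256 and 252 CPM with vehicle and 328, 396 and 336 CPM with RGS. The groups did not overlap, but the lowest RGS tumor was only 1.14 times the highest vehicle tumor. The log2 fold change was 0.41 ± 0.15 (SE; edgeR adjusted p = 0.0422), and its 95% interval ran from 0.10 to 0.73. This call was lost in 10 of 19 alternatives, among them leaving out vehicle tumor 8 (edgeR adjusted p = 0.147), vehicle tumor 9 (0.108), RGS tumor 10 (0.0567), RGS tumor 11 (0.228) or RGS tumor 12 (0.0807).

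Btc (ENSMUSG00000082361.6), at chr5:91357261-91402994 on the minus strand, encodes betacellulin, a ligand of EGFR and ERBB4. It was at 85.3, 101 and 102 CPM with vehicle and 126, 94.2 and 69.9 CPM with RGS, so the RGS tumors lay on both sides of the vehicle tumors. The means were 96.0 ± 9.30 and 96.5 ± 27.9 CPM (SD, n = 3), and the log2 fold change of 0.01 had a 95% interval from -0.39 to 0.41 (edgeR adjusted p = 0.979). A change of Areg's size was outside that interval.

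Tgfa (ENSMUSG00000029999.14, chr6:86195223-86275719) and Egf (ENSMUSG00000028017.7, chr3:129677565-129755316), which encode the EGFR ligands TGF-alpha and EGF, were close to the detection limit. Tgfa had 37, 15 and 0 counts with vehicle and 8, 10 and 27 with RGS (log2 fold change 0.79 ± 1.35 SE; edgeR adjusted p = 0.699). Egf had 40, 7 and 0 counts with vehicle and 23, 0 and 10 with RGS (log2 fold change 0.29 ± 1.55 SE; edgeR adjusted p = 0.906). A difference between the groups was not detectable for either gene at this depth.

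**Figure D2:**
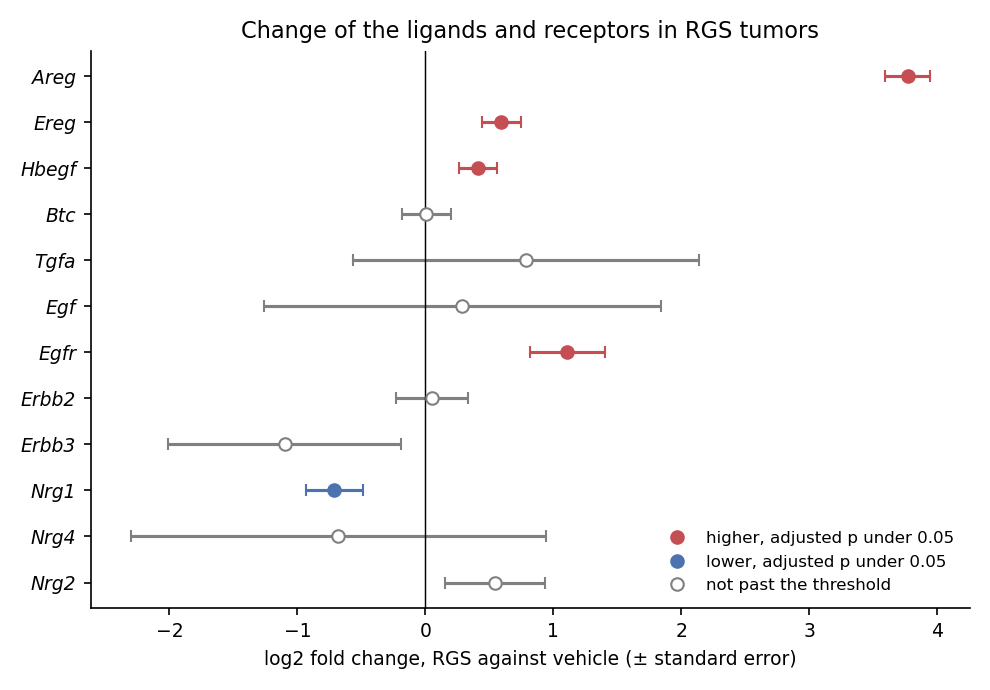
Log2 fold change in RGS against vehicle tumors (horizontal axis) for the 9 tested members and the 3 tested ligand genes outside the 10, each with its standard error; filled points passed an adjusted p under 0.05 and open points did not. Areg stands at 3.77, Egfr at 1.11, Ereg at 0.59, Hbegf at 0.41 and Nrg1 at -0.71, and the bars of Tgfa, Egf, Erbb3 and Nrg4 are wide.

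Levels of different genes were compared per length, as RPKM (CPM divided by the gene length in kilobases). With vehicle the order was Hbegf (112 ± 8.52 RPKM), Ereg (39.2 ± 0.572), Areg (27.8 ± 4.40), Btc (21.2 ± 2.06), Erbb2 (3.04) and Egfr (0.858), and the ranges of these neighbors over 3 tumors did not overlap. With RGS, Areg moved from the third to the first place at 378 ± 21.8 RPKM, above Hbegf (149 ± 15.7), Ereg (59.1 ± 7.64) and Btc (21.4 ± 6.17), again without overlap. In both groups Hbegf, Ereg, Areg and Btc were each above every receptor gene.

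Summed over the 6 ligands, the level was 204, 197 and 199.9 RPKM in the vehicle tumors and 603, 596 and 624 RPKM in the RGS tumors. The groups were 3.03-fold apart with an SD of 3.43 and 14.7 RPKM, and the exact two-sided permutation test gave p = 0.1, the smallest value that 3 against 3 tumors allow. Without Areg the other 5 ligands summed to 172 ± 6.50 RPKM with vehicle and 229.6 ± 8.37 with RGS, a ratio of 1.33. Areg made up 11.8%, 13.5% and 16.3% of the ligand sum with vehicle and 62.5%, 59.8% and 64.1% with RGS. The share of Hbegf went from 55.9% to 24.5% and that of Btc from 10.6% to 3.53% (means of 3 tumors). In CPM, however, Hbegf was called higher and Btc was not called. The ratio of Areg to Ereg, adjacent genes among the tested ones of the locus, was 0.617, 0.669 and 0.842 with vehicle and 6.33, 6.94 and 6.01 with RGS.

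**Figure D3:**
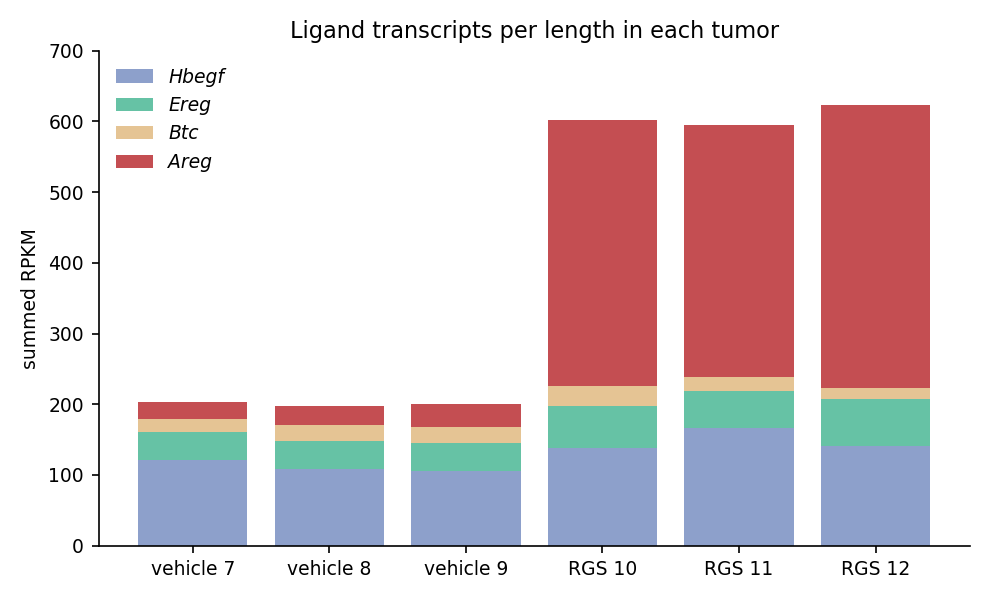
RPKM of Hbegf, Ereg, Btc and Areg stacked for each of the 6 tumors (Tgfa and Egf, each under 0.1% of the sum, are not drawn). The vehicle bars end near 200 RPKM with Areg as a thin top layer, and the RGS bars end between 596 and 624 RPKM with Areg as the main layer.

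Of the receptor genes, Egfr (ENSMUSG00000020122.16, chr11:16752203-16918158, plus strand) encodes the receptor that binds all 6 ligands. It stood at 14.0, 8.09 and 7.01 CPM with vehicle and at 25.1, 19.4 and 18.5 CPM with RGS. Every RGS tumor was above every vehicle tumor, the closest pair being 1.32 times apart. The log2 fold change was 1.11 ± 0.29 (SE; edgeR adjusted p = 0.00671), with a 95% interval from 0.50 to 1.72. Egfros, which overlaps Egfr on the opposite strand, had 0 counts in all tumors.

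Erbb2 (ENSMUSG00000062312.5, chr11:98412470-98437716, plus strand), the receptor without a known ligand, was at 17.7, 15.6 and 14.2 CPM with vehicle and 14.4, 23.7 and 11.2 CPM with RGS. The RGS tumors enclosed the vehicle tumors, and the log2 fold change of 0.05 had a 95% interval from -0.54 to 0.65 (edgeR adjusted p = 0.909). It shares 9 exonic bases with Mien1 on the opposite strand. Erbb3 (ENSMUSG00000018166.8, chr10:128567523-128589652, minus strand), the neuregulin receptor with weak kinase activity, had 183, 44 and 20 counts with vehicle and 32, 25 and 3 with RGS. Its log2 fold change of -1.10 had an SE of 0.91 and an edgeR adjusted p of 0.384, and vehicle tumor 7 alone held most of its counts. Erbb4 (ENSMUSG00000062209.15, chr1:68032186-69108059, minus strand), another neuregulin receptor, had 0 counts in all 6 tumors, which allows at most the floor given above in each.

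The 4 receptors together stood at 4.32 ± 1.05 RPKM with vehicle and 5.21 ± 1.38 with RGS (exact permutation test, p = 0.5). Within this sum, Egfr made up 22.5%, 18.0% and 17.8% with vehicle and 42.3%, 26.1% and 42.9% with RGS. The ratio of Erbb2 to Egfr was 2.74, 4.19 and 4.40 with vehicle and 1.25, 2.65 and 1.31 with RGS, so Erbb2 was above Egfr in every tumor by a smaller margin with RGS (exact permutation test, p = 0.1). Over the groups, the RPKM ranges of Erbb2 and Egfr were apart with vehicle and overlapped with RGS. Ligand transcripts exceeded receptor transcripts per length 37.0-fold to 57.4-fold with vehicle and 90.5-fold to 163-fold with RGS.

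The other ligands of the family were the neuregulin genes and Epgn, a list of 5. Of these 3 were tested, and 0 were higher and 1 was lower, beside 16.3% higher and 16.5% lower over all tested genes. The median log2 fold change of -0.68 was the value of Nrg4, which passed the filter on low counts only through the vehicle tumors. Nrg1, which encodes the main ligand of ERBB3, stood at 27.5, 24.6 and 29.1 CPM with vehicle and 16.8, 15.1 and 17.7 CPM with RGS. The groups were apart, and the log2 fold change was -0.71 ± 0.22 (SE; edgeR adjusted p = 0.0180). The call was lost without vehicle tumor 8, vehicle tumor 9 or RGS tumor 11, with the edgeR adjusted p reaching 0.0729. Nrg2 was at 6.31 CPM with vehicle and 9.22 with RGS (log2 fold change 0.55; edgeR adjusted p = 0.303), and Nrg4 at 0.720 and 0.449 CPM (-0.68; edgeR adjusted p = 0.787). The counts of Nrg4 were 23, 41 and 1 with vehicle and 0, 0 and 22 with RGS. Epgn, between the chemokine genes and Ereg on chromosome 5, had 5 counts in 1 vehicle tumor and none elsewhere, and Nrg3 had none in any tumor.

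The window of 250 kb on either side of Areg, Ereg, Epgn and Btc held 16 genes, of which 10 were tested and 7 of those were not EGF family ligands. Of these 7, 3 were higher and 0 lower, beside 16.3% higher and 16.5% lower over all tested genes. Parm1, 1 of the 3, passed the filter on low counts only through the RGS tumors. Cxcl1 and Cxcl2, neutrophil-attracting chemokine genes, went from 90.9 to 134 CPM (log2 fold change 0.56; edgeR adjusted p = 0.0279) and from 6.86 to 13.1 CPM (0.93; edgeR adjusted p = 0.0328). Both calls were lost when vehicle tumor 7, vehicle tumor 8, RGS tumor 11 or RGS tumor 12 was left out, that of Cxcl2 also without RGS tumor 10, with an edgeR adjusted p of up to 0.163 for Cxcl1 and 0.111 for Cxcl2. Parm1 had 0 counts in the vehicle tumors and 8, 33 and 0 with RGS, so its groups overlapped, and its call was lost without vehicle tumor 7 or vehicle tumor 8 (edgeR adjusted p up to 0.0788). The chemokine gene Cxcl3 (log2 fold change -0.06), the folate enzyme gene Mthfd2l (0.02) and the antisense gene Gm19610 (-0.13) had edgeR adjusted p-values of 0.964, 0.970 and 0.789. Gm19619, a noncoding gene between Areg and Btc, had 8, 2 and 10 counts with vehicle and none with RGS (edgeR adjusted p = 0.0855). Outside the EGF family, no tested gene of the window but Parm1 and Gm19619, whose values rest on few counts, had a log2 fold change over 1 in size.

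**Figure D4:**
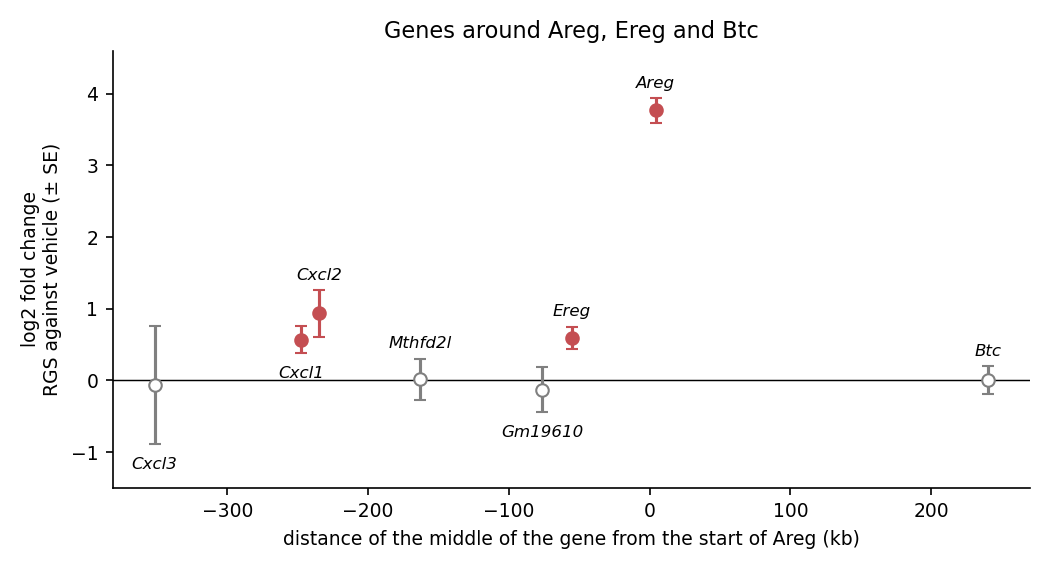
Log2 fold change with its SE (vertical axis) against the distance of the middle of each gene from the start of Areg in kb, for the tested genes around Areg, Ereg and Btc; Parm1 and Gm19619, under 1 CPM on average in both groups, are not drawn. Red filled points passed an adjusted p under 0.05: Areg at 3.77 stands above Cxcl2 at 0.93, Ereg at 0.59 and Cxcl1 at 0.56, and Btc is at 0.01.

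Genes that act before, with and after the receptors were taken as 4 further lists. With the other ligands they hold 62 genes, of which 56 were tested, 17 were higher and 9 lower, and the median log2 fold change was 0.12. Over all tested genes 16.3% were higher and 16.5% lower. The lists were chosen with earlier results of these data known, so a difference from these shares is not independent support. Without vehicle tumor 8 the number called higher was 11.

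The list of shedding genes, which release ligands from the membrane, had 7 of 8 genes tested. Of these, 4 were higher and 1 lower, beside 16.3% and 16.5% of all tested genes. The median log2 fold change was 0.51. Adam17, the main sheddase of Areg and Hbegf precursors, went from 76.2 ± 9.29 to 108 ± 24.7 CPM (0.51; edgeR adjusted p = 0.0381). Frmd8 and Rhbdf2, which keep ADAM17 stable and at the cell surface, went from 132 to 268 CPM (1.02; edgeR adjusted p = 0.000164) and from 48.5 to 75.7 CPM (0.64; edgeR adjusted p = 0.0110). Bace1, the protease known for cleaving neuregulin, rose from 45.2 to 89.8 CPM (log2 fold change 0.99). Adam9 fell from 258 to 150 CPM (-0.78; edgeR adjusted p = 0.00307), while Adam10, the sheddase of Egf and Btc precursors, was at -0.12 (edgeR adjusted p = 0.617) and Rhbdf1 at -0.24 (0.312). Adam12 had at most 19 counts and was not tested. The number of shedding genes called higher was 2 without vehicle tumor 8 and 2 without RGS tumor 10, where Adam17 and Rhbdf2 were lost, as they were when libraries were scaled by their totals alone. The Adam17 call was also lost without vehicle tumor 9 or RGS tumor 11, with an edgeR adjusted p of up to 0.226 without 1 tumor.

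Adaptor and effector genes numbered 22, of which 21 were tested. Of these, 6 were higher and 2 lower, beside 16.3% and 16.5% of all tested genes. The median log2 fold change was 0.07. Grb2, the adaptor that links the receptors to RAS, went from 96.8 to 179 CPM (log2 fold change 0.89), the kinase gene Src from 98.8 to 199.6 CPM (1.01), and Pik3r1, the regulatory subunit of PI3K, from 29.3 to 61.2 CPM (1.06). All 3 passed in every alternative but the limit on fold size, which Grb2 missed. Vav2 was at 7.27 and 14.3 CPM (0.97; edgeR adjusted p = 0.0387), and its call was lost in 6 of 19 alternatives, among them leaving out vehicle tumor 8, vehicle tumor 9 or RGS tumor 10 (edgeR adjusted p up to 0.169). The adaptor gene Crk fell by 0.52 on the log2 scale, from 252 to 176 CPM, and Stat5a, a transcription factor gene, by 1.46, from 11.1 to 4.04 CPM. The Crk call was lost without vehicle tumor 8 or RGS tumor 11 (edgeR adjusted p up to 0.0782). Without vehicle tumor 8 the counts were 3 higher and 1 lower, and without RGS tumor 11 the number lower was 1. With libraries scaled by their totals alone, 3 were higher and 4 lower.

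Among 12 genes of receptor inhibitors, 11 were tested, 3 were higher and 2 lower, and the median log2 fold change was -0.03. Cblb, a ubiquitin ligase that marks active EGFR for degradation, went from 13.2 to 43.4 CPM (1.71; edgeR adjusted p = 8.63e-06). The phosphatase genes Ptpn1 and Ptprj, whose products dephosphorylate EGFR, went from 72.2 to 167 CPM (1.21) and from 19.1 to 37.1 CPM (0.95). In the other direction, Errfi1, a direct inhibitor of the ERBB kinases, fell from 362 to 192 CPM (-0.91; edgeR adjusted p = 0.000247). Socs4, which promotes EGFR degradation, fell from 38.7 to 18.8 CPM (-1.04). Over all tested genes 16.3% were called higher and 16.5% lower, so calls in both directions are not particular to the inhibitors.

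Immediate early genes and other early genes of growth factor signaling were a list of 15. Of these, 14 were present and tested, and the other one was not analysed here. There were 4 higher and 3 lower, beside 16.3% and 16.5% of all tested genes, with a median log2 fold change of 0.21. Ier3 rose from 224 to 1298 CPM (2.53), Plaur, the urokinase receptor gene, from 186 to 720.5 CPM (1.95), Phlda1 from 144 to 336 CPM (1.22) and Fosb from 18.9 to 30.3 CPM (0.68). The Fosb call was lost in 6 of 19 alternatives, among them leaving out vehicle tumor 8, vehicle tumor 9 or RGS tumor 12, with an edgeR adjusted p of up to 0.0766 without 1 tumor. Egr1, a transcription factor gene induced by ERK, fell from 262 to 68.4 CPM (-1.94). Klf6 fell from 228 to 90.2 CPM (-1.34) and Myc from 322 to 145 CPM (-1.15). The others, among them Fos, Fosl1, Junb and Ier2, were not called. The largest changes in this list thus had opposite signs.

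**Figure D5:**
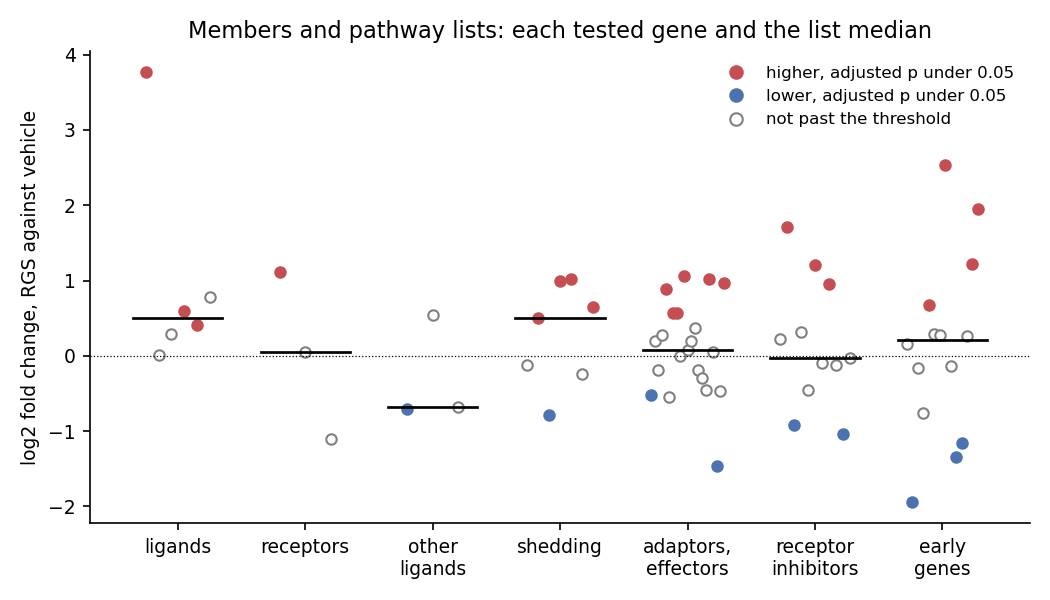
Log2 fold change in RGS against vehicle tumors (vertical axis) of each tested gene in the 2 member groups and the 5 pathway lists (horizontal axis), with the list median as a black line; red and blue points passed an adjusted p under 0.05 as higher and lower. Areg at 3.77 is the highest point, Ier3 follows at 2.53, and Egr1 is the lowest at -1.94. The medians run from -0.68 (other ligands) to 0.51 (shedding).

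For the 3 members with the largest called changes, the genes with the most alike profile over the 6 tumors were found among 12239 genes of at least 1 CPM, by the root mean square difference of centered log2 CPM. Closest to Areg were Fetub (0.207), Add2 (0.228) and Nefl (0.231), the last of which encodes a neurofilament and rose from 25.0 to 449 CPM. Closest to Egfr was Fn1, the fibronectin gene (0.0505), which rose from 2789 to 5903 CPM, followed by Gprc5b (0.0896) and Mkl1 (0.0902). Closest to Ereg were Tax1bp1 (0.0338), Ywhaz (0.0478) and Zranb1 (0.0588). The profiles compared include the difference between the groups.

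Some marker genes of other cells moved with the members. The summed level of 14 keratinocyte markers was 4.53 to 7.76 CPM with vehicle and 40.3 to 60.9 CPM with RGS. Only 4 of the 14 were tested and 3 of these were higher, against 16.3% of all tested genes. Ivl and Krt16 had 0 counts in every vehicle tumor and passed the filter only through the RGS tumors, so the filter shaped this count. Most of the sum was Sfn, from 4.73 to 35.1 CPM, and Ivl, with 0 counts with vehicle and at least 95.3-fold higher with RGS against a floor of 3 counts per library. The basal keratinocyte genes Krt5 and Krt14 had at most 2 counts in any tumor, and Trp63, Krt1, Dsg3 and Krt6a had none. The 8 mast cell and basophil markers summed to 0.0856 to 0.535 CPM with vehicle and 14.5 to 18.9 CPM with RGS, nearly all of it Mcpt8, while 6 of them, Cpa3 and Fcer1a included, were at 0 in all tumors. The 6 endothelial markers summed to 0.946 to 1.20 CPM with vehicle and 3.47 to 11.2 CPM with RGS, and most of the RGS sum was Cdh5. Only 3 of the 6 were tested and 1, Cdh5, was higher (0.555 CPM with vehicle and 6.20 with RGS). Pecam1 (0.204 and 0.768 CPM) and Tek (0.217 and 0.0520 CPM) were not called. Kdr had at most 6 counts in a tumor, Tie1 at most 3, and Emcn 0. The 9 fibroblast markers summed to 408 to 602 CPM with vehicle and 294 to 322 CPM with RGS, with Pdgfrb, Col3a1, Col1a2 and Pdgfra lower, Dcn higher and Lum at 0.

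The remaining marker lists differed less. The 9 macrophage markers summed to 58.9 to 64.7 CPM with vehicle and 65.5 to 88.5 CPM with RGS, nearly all of it Cd68. The 7 Schwann cell markers, 6 of them in the table, summed to 17.0 to 18.4 CPM and 21.8 to 28.9 CPM, with Ngfr higher and Cdh19 at 0. Mbp was called lower, with 30, 24 and 29 counts with vehicle and 0 in every RGS tumor. It passed the filter on low counts only through the vehicle tumors. Of 4 Schwann cell markers tested, 1 was higher and 1 lower, beside 16.3% and 16.5% of all tested genes. The 8 melanocyte markers summed to 4.94 to 7.68 CPM and 4.53 to 12.7 CPM, the 9 lymphocyte markers to 4.24 to 7.45 CPM and 6.36 to 9.23 CPM, the 7 neutrophil markers to 0.114 to 0.516 CPM and 0.473 to 0.673 CPM, and the 6 skeletal muscle markers to 6.34 to 10.6 CPM and 3.99 to 8.20 CPM. In these last 4 lists most markers failed the filter on low counts. Those tested were 2 melanocyte, 1 lymphocyte, 1 neutrophil and 2 skeletal muscle markers, and none of them passed the test. The part of these cell types in the changes of Areg, Ereg, Hbegf and Egfr was not tested.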

How the data were processed

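RNA of 6 tumors, 3 per group, was sequenced as paired-end reads of 150 bases. The authors deposited raw counts of reads per gene, without normalization. The submitters' processing notes name cutadapt 1.18, FastQC 0.11.7, STAR 2.7.1a, featureCounts 1.6.4 and mm10; the annotation, the strand setting and the handling of multi-mapping reads are not given in the sources used here. Gene positions in the table equalled those of GENCODE M21 for all 38927 shared identifiers.

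From the counts, RGS was compared with vehicle in R 4.3.3 with edgeR 4.0.16 on the 15355 genes whose median count reached 5 in either group, with TMM factors, the two-sided quasi-likelihood F test and Benjamini-Hochberg adjustment over all tested genes. Each SE was obtained from the log2 fold change and the F statistic. CPM and RPKM used TMM-scaled totals of the tested genes and the gene lengths in the table. Floors of 3 counts cover counting error. Intervals of 95% are for the log2 fold change and rest on the spread between tumors. Single sums and ratios were compared by an exact permutation test over the 6 tumors. The labels do not say which mouse each tumor came from, so p-values judge the group difference against the spread between these samples only. Counts of tumors of 1 group differed by more than sampling noise (chi-square per degree of freedom of at least 18.5).

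Members, gene lists, motifs and marker lists were chosen with earlier results of these data known. The named genes are all members, the other ligands, tested neighbors and overlapping genes, up to 4 called genes in each direction from each pathway list whose groups did not overlap and whose mean was at least 1 CPM, the 3 closest profiles, and markers of lists that moved. Alternatives were DESeq2 1.42.0, limma 3.58.1 voom, other factors, filters, dispersions and thresholds, thinned counts, mitochondrial genes left out, each tumor left out, and TPM for RPKM. The procedure was tested on simulated data.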

Additional observations from a re-analysis of the deposited data

How the results depend on the processing

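Of 19 alternatives, Areg (log2 fold change 3.63 to 3.90) and Egfr (0.93 to 1.48) kept their call in all 19, Ereg in 17 and Hbegf in 9. The cause of the lost calls was not tested, except that a limit on fold size removes small changes by construction. The number of members called higher was 2 when a change of at least 1 on the log2 scale was required, and 2 to 4 with each tumor left out; no member was called lower in any alternative. Pathway genes called higher numbered 11 with library size only, 11 at an adjusted p under 0.01, 8 with the fold limit (5 lower) and 11 to 21 with each tumor left out. Library size only shifted the median of all genes by -0.14 and gave 1870 higher and 3152 lower calls (37.2% higher, against 49.7%). All genes called were 1607 higher and 1562 lower at an adjusted p under 0.01 and 1168 and 1450 with the fold limit, against 2503 and 2533. Signs that turned belonged to genes that were not called: Erbb2 at -0.087 with library size only and -0.31 to 0.24 with each tumor left out; Btc at -0.035 (upper quartile), -0.12 (library size only), -0.085 (voom) and -0.011 (thinned), and -0.23 to 0.17 with each tumor left out; Mthfd2l at -0.028 (upper quartile), -0.11 (library size only) and -0.028 (thinned), and -0.27 to 0.17 with each tumor left out; and Cxcl3 at 0.073 (thinned). With each tumor left out, Cxcl3 ranged from -0.78 to 0.35, Egf from -0.55 to 2.13, Nrg4 from -7.14 to 0.39 and Gm19610 from -0.35 to 0.0060. TPM scaled the levels up, for example Areg to 90.3 and 1089 (vehicle and RGS), and cannot alter the order of genes within a tumor. The stricter filters left Tgfa and Egf out of 1 alternative each. No paired analysis was possible because the groups share no replicate number. Counts under about 3 per tumor limit what can be said of Erbb4, Epgn and Nrg3.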
